A study of Homo sapiens with 18 samples.

Results

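A group of 104 genes stood at a level at least 2 times higher in SW620 cells treated with siRNA against Lonp1 than in cells treated with a scramble siRNA, whether the cells were unheated, heat-shocked or recovering. These genes were chosen by their measured values. Counts were scaled to the total of their library (CPM), and a gene was taken when the mean of its 3 siLonp1 libraries was at least 3 CPM in every condition and at least 2 times the mean of the 3 scramble libraries in every condition. TAGLN and symbols starting with HIST, FOS, JUN, EGR, DUSP or KLF were left out by the same rule. Of the 26485 gene symbols counted, 10754 passed the limit on level. The limit on the ratio was met by 164 of them in Ctrl libraries, 155 in HS and 188 in HS+REC. After TAGLN and DUSP5 were removed by their symbols, 104 genes met it in all 3 conditions, or 0.967% of those that passed the limit on level.

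SW620 is an established human colon cancer cell line. The cells were transfected with siLonp1 or with the scramble siRNA and stayed unheated at 37 °C (Ctrl), were held at 42 °C for 1 h (HS), or had 1 h of recovery at 37 °C after the same heat (HS+REC). Each of the 6 groups had 3 libraries, which the study describes as independent biological replicates, and all groups received an siRNA, so untransfected cells were not compared. The study's methods name more than 1 siRNA against Lonp1 and do not give the one used for RNAseq, and effects of an siRNA sequence cannot be told apart here from those of the loss of Lonp1.

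Lonp1 is an ATP-dependent protease of the mitochondrial matrix that degrades misfolded and oxidised proteins, binds mitochondrial DNA and takes part in mitochondrial protein quality control. Mitochondrial disturbance is known to reach the nucleus through several routes, of which the integrated stress response, with its factor ATF4, is the best described. The 104 genes encode keratins, secreted ligands, receptors, adhesion and actin proteins, matrix proteins, genes best known from neurons or blood cells, and transcription factors, and the groups used below were formed by hand from the known roles of the genes after the members were known.

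Library totals ranged from 30815860 to 47279297 counts, with a median of 40847024.5. LONP1 itself checked the labels. At 37 °C it was at 233 ± 5.73 CPM (SD, n = 3) with scramble and 20.5 ± 1.79 CPM with siLonp1, in HS at 222 ± 17.9 and 11.3 ± 0.147 CPM, and in HS+REC at 217 ± 18.9 and 25.7 ± 1.7 CPM. Of 10 colon epithelium markers 8 had a group mean of at least 1 CPM, with EPCAM, KRT8, KRT18, KRT19 and VIL1 high in every library, CDX1 at 0 throughout and LGALS4 at 0.435 CPM in its highest library. Their summed level was 8695 to 10618 CPM in scramble and 8326 to 11689 CPM in siLonp1 libraries, mostly from KRT8 and KRT18. Single markers differed between the arms. In Ctrl, HS and HS+REC the group means of CDH17 were 10.8, 11.1 and 12 CPM with scramble and 1.18, 0.97 and 1.32 CPM with siLonp1, those of CDX2 31.1, 27 and 24.8 against 15.8, 9.68 and 11.3 CPM, and those of CDH1 108, 106 and 85.8 against 158, 152 and 115 CPM. Fibroblast markers summed to 43.7 to 62.5 CPM in scramble and 23.5 to 46.3 CPM in siLonp1 libraries, mostly from LUM and COL1A1, with COL3A1 at 0. The group means of LUM in Ctrl, HS and HS+REC were 35.6, 26.6 and 30.8 CPM with scramble and 12, 9.65 and 11.5 CPM with siLonp1, those of COL1A1 9.7, 17.6 and 30.0 against 9.71, 15.9 and 31.6 CPM, and those of PDGFRB 1.23, 1.01 and 1.12 against 2.63, 1.95 and 2.33 CPM. Endothelial markers summed to at most 1.52 CPM in any library, with KDR at 0.

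Promoters of 4 of the genes are shown as examples, picked because they hold a match to a letter pattern. They are LBH and CXCL8, which rose with heat, AREG, which rose in recovery, and AKAP12, an actin-associated gene of high level. Whether the patterns bear on these changes was not tested. CHPF, which fell with heat in the scramble arm, also holds the cAMP response element. Each sequence runs 5′ to 3′ over 250 bases before and 50 bases from the start site, taken from RefSeq on GRCh38.p14, and each window lies at the 5′ end of its gene and holds the first bases of the first exon. Capitals mark the matches: the TATA box (TATAAA), the AP-1 site (TGANTCA), the cAMP response element (TGACGTCA) and, in AKAP12, the CArG box that binds serum response factor.
LBH promoter, chr2:30231284-30231583, plus strand: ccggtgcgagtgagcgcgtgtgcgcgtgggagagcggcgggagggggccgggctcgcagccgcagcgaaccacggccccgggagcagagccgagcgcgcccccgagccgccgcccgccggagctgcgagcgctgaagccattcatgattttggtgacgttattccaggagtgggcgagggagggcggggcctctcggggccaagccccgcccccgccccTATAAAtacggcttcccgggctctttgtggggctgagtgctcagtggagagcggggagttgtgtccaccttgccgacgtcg
CXCL8 promoter, chr4:73740319-73740618, plus strand: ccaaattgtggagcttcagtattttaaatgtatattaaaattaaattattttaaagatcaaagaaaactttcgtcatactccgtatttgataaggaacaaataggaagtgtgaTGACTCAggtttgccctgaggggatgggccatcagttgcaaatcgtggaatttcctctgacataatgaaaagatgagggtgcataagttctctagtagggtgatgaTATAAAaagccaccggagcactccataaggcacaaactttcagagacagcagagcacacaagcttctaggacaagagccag
AREG promoter, chr4:74444886-74445185, plus strand: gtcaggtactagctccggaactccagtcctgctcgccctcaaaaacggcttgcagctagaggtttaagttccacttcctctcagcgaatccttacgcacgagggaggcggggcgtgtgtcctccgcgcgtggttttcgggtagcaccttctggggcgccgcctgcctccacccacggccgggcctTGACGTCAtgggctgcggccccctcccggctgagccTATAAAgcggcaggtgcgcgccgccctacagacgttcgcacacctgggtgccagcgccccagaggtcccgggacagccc
AKAP12 promoter, chr6:151239717-151240016, plus strand: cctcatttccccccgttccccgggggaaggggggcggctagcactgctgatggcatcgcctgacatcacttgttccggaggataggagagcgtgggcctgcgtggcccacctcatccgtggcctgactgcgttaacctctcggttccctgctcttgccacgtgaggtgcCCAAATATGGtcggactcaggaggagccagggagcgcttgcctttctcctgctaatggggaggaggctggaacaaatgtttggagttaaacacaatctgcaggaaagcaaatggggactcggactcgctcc
The TATA box started 31 bases before the start site in LBH, 31 in CXCL8 and 29 in AREG. The AP-1 site of CXCL8 started at 137 bases, the cAMP response element of AREG at 65 bases and the CArG box of AKAP12 at 81 bases before the start site. RefSeq promoters were matched for 70 of the 104 genes (67.3%), and since fewer than 80% had a value, a comparison of the 104 genes with other promoters is void. On both strands, TATAAA was found in 9 of the 70, in 5.41% of the 10179 promoters of genes kept for testing (CPM above 1 in at least 3 libraries) and in 12.0% of all 27303 promoters of the same length. In the same order, TGANTCA was found in 5 (IL23A, CXCL8, NKAIN1, RAET1L and LCTL), in 4.38% and in 7.76%, and TGACGTCA in 2 (AREG and CHPF), in 3.31% and in 1.98%. The CArG box was found in 2 (AKAP12 and ARHGDIB), in 1.05% and in 1.29%, and the TEAD site GGAATG in 14, in 10.9% and in 14%. TGATGNAA, bound by C/EBP and ATF factors, was found in 1 (IL7R), in 1.55% and in 3.67%, and the heat shock element in 0, in 0.285% and in 0.487%. In RAET1L the AP-1 and TEAD matches overlap.

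Across the 104 genes the ratio of siLonp1 to scramble had a median of 2.6 in Ctrl libraries, 2.6 in HS and 2.78 in HS+REC. The highest values were 5.26 in Ctrl and 5.19 in HS, both of LBH, and 5.05 in HS+REC, of DKK1. A ratio of at least 3 was found for 28 genes in Ctrl libraries, 29 in HS and 37 in HS+REC, and of at least 4 for 3, 5 and 9. The median log2 ratio over all genes kept was -0.07, -0.10 and -0.07 by the same scaling. These ratios chose the genes, so they and their differences between conditions are a description without a test. Every siLonp1 library lay above every scramble library for all 104 genes in each condition, beside 25.6% of the 12832 genes kept for testing in Ctrl libraries, 22.3% in HS and 20% in HS+REC. In edgeR's fit all 104 were past an FDR of 0.05 and a fold change of 2 in each condition, which is the contrast of the rule. The share of all genes called raised by siLonp1 was 2.63% in Ctrl libraries, 2.56% in HS and 2.84% in HS+REC, and 1.54%, 1.61% and 1.33% were called lowered.

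Within a gene the ratio changed little from condition to condition. The largest of the 3 ratios divided by the smallest had a median of 1.16 and was under 1.2 in 63 genes. It was lowest in THG1L and 1.5 or more in PRICKLE2, WNT6 and ITGB8. Which condition gave the largest ratio was HS+REC for 51 genes, HS for 31 and Ctrl for 22. Most of the genes were of low level, with a mean over the scramble libraries from 1.05 CPM (TNNC1) to 243.9 CPM (KRT80), a median of 6.15 CPM and 66 genes under 10 CPM. Over the siLonp1 libraries the mean ran from 3.20 CPM (LCTL) to 509 CPM (KRT80), with a median of 16.5 CPM. The coefficient of variation among the 3 libraries of a group had a median of 7.58% and reached 49.7% over the 624 values. In 96 genes all 9 siLonp1 libraries, heated or not, lay above all 9 scramble libraries, beside 6.61% of the genes kept, a count that the ratios of the rule largely set. The other 8 were NR4A1, PLAU, FLNC, STEAP3, MYL9, HBEGF, C15orf52 and AREG.

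**Figure D1:**
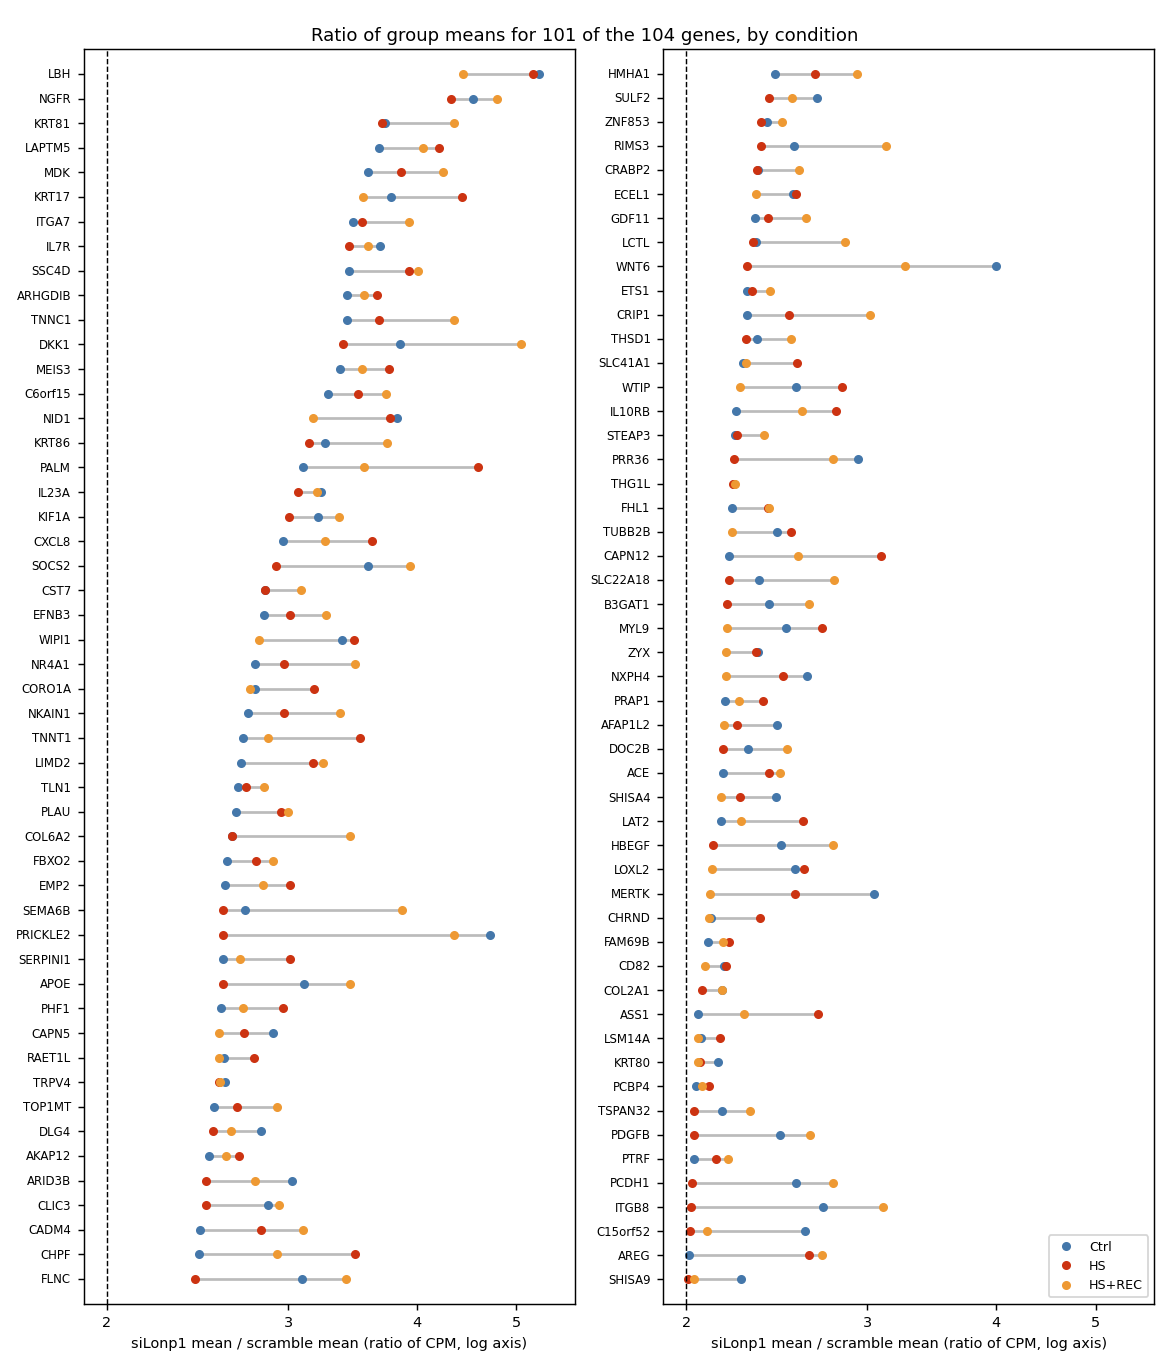
Each line is 1 gene, for 101 of the 104, and each point the mean of 3 siLonp1 libraries divided by the mean of 3 scramble libraries in Ctrl, HS or HS+REC, on a log axis. The dashed line is the limit of 2 that chose the genes, and LBH, at the top, stands at 5.26 in Ctrl while SHISA9, at the other end, stands at 2.01 in HS.

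Choosing the genes on 2 replicates and reading them in the third used values that had not entered the choice. The rule gave 103 genes without replicate 1, 101 without replicate 2 and 95 without replicate 3, of which 97, 96 and 91 were among the 104. In the replicate left out, siLonp1 was above scramble for each of these genes in all 3 conditions, beside 24.7%, 26.9% and 28.5% of all genes that passed the limit on level. The ratio was again at least 2 in all 3 conditions for 80 of 103, 80 of 101 and 82 of 95, beside 0.874%, 0.921% and 0.976% of those genes. Median ratios in the replicate left out ran from 2.52 to 2.85, against 0.922 to 0.978 for all genes that passed the limit on level, of which 1.39% to 2.32% reached a ratio of 2 in a single condition. The check bears on the measurement in these libraries and uses no silencing other than the one that chose the genes.

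Members just inside the limit included SHISA9 with ratios of 2.26, 2.01 and 2.04, AREG with 2.01, 2.63 and 2.71 and C15orf52 with 2.61, 2.02 and 2.09 in Ctrl, HS and HS+REC. Just outside it stood OSBPL6 with 2.0, 2.09 and 2.36, CAV1, the main coat protein of caveolae, with 1.99, 2.04 and 2.2, SERPINE2 with 2.05, 1.98 and 2.2 and GNB1 with 1.97, 1.99 and 2.11. The first value of OSBPL6 is a little under 2 before rounding. The 2 genes left out by symbol had ratios of 4.42, 4.86 and 6.14 (TAGLN, an actin-binding protein of smooth muscle) and 3.09, 3.1 and 4.37 (DUSP5, a phosphatase of ERK kinases).

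LBH, a transcriptional cofactor of limb and heart development, had the largest smallest ratio of the 104 genes. With scramble siRNA it was at 1.89, 2.42 and 2.26 CPM in Ctrl, 6.2, 6.06 and 6.56 CPM in HS and 6.84, 9.7 and 8.84 CPM in HS+REC. With siLonp1 the values were 10.8, 12.3 and 11.5 CPM in Ctrl, 35, 31.8 and 31 CPM in HS and 39.8, 37.2 and 35.5 CPM in HS+REC. The ratios were 5.26, 5.19 and 4.44, and the lowest of the 9 siLonp1 libraries, at 10.8 CPM, was above the highest scramble library, at 9.7 CPM, although that one was a recovery library and the other an unheated one. NGFR, a receptor of neurotrophins, followed. With scramble it was at 7.64, 7.31 and 6.9 CPM in Ctrl, 6.64, 6.66 and 5.22 CPM in HS and 5.86, 5.71 and 7.04 CPM in HS+REC. With siLonp1 the values were 33.9, 32.4 and 32.9 CPM in Ctrl, 26.7, 27.9 and 25.5 CPM in HS and 32.7, 27 and 29.4 CPM in HS+REC. Its ratios were 4.54, 4.32 and 4.79, and its log2 fold change in HS was -0.20 with scramble (standard error 0.11) and -0.26 with siLonp1 (0.09), under the fold change limit used below.

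Keratins, the intermediate filaments of epithelia, were represented by 4 genes, KRT17, KRT80, KRT81 and KRT86, with median ratios of 3.49, 3.42 and 3.65. KRT81 and KRT86 are hair keratins. With scramble siRNA KRT81 was at 11.1, 10.3 and 9.41 CPM in Ctrl, 10.4, 11.6 and 11.4 CPM in HS and 9.44, 12.3 and 11.5 CPM in HS+REC. With siLonp1 it was at 40.5, 37.3 and 36.7 CPM in Ctrl, 45.3, 42.4 and 35.8 CPM in HS and 54.5, 43.4 and 46.7 CPM in HS+REC, ratios of 3.72, 3.7 and 4.35. KRT86 had ratios of 3.26, 3.14 and 3.75. The spans of KRT86 and KRT81 overlap on chromosome 12 and the genes are near-identical in parts, so reads may be divided between them in an uncertain way. KRT80 had the highest level of all members. In scramble libraries it was at 234, 241 and 222 CPM in Ctrl, 234, 226 and 199 CPM in HS and 294, 269.8 and 275 CPM in HS+REC, and in siLonp1 libraries at 522, 495 and 480.1 CPM in Ctrl, 457, 458 and 445 CPM in HS and 571, 570.3 and 580.1 CPM in HS+REC. Its ratios of 2.15, 2.06 and 2.05 were among the smallest of the 104, but the groups did not overlap. KRT17, a keratin of basal and wounded epithelium, was low, at 2.02, 2.02 and 1.88 CPM in Ctrl scramble and 7.7, 7.23 and 7.42 CPM in Ctrl siLonp1, and its ratios were 3.78, 4.43 and 3.55.

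Secreted and membrane-bound ligands gave 11 genes, MDK, DKK1, CXCL8, IL23A, AREG, HBEGF, PDGFB, GDF11, WNT6, SEMA6B and EFNB3, with median ratios of 2.85, 2.63 and 3.26. MDK, the heparin-binding growth factor midkine, combined a high level with a high ratio. In scramble libraries it was at 52, 55.8 and 52.1 CPM in Ctrl, 47.7, 50.4 and 52.6 CPM in HS and 43.7, 49.3 and 54.8 CPM in HS+REC. In siLonp1 libraries it was at 193, 196 and 185 CPM in Ctrl, 199, 197 and 186 CPM in HS and 228, 199 and 200.4 CPM in HS+REC, ratios of 3.59, 3.87 and 4.25. Its 9 scramble libraries lay between 43.7 and 55.8 CPM, and its lowest siLonp1 library was at 185 CPM. DKK1, a secreted inhibitor of WNT signalling, had ratios of 3.86, 3.39 and 5.05. It was at 15.4, 15.4 and 12.8 CPM in Ctrl, 17.3, 15.7 and 17.5 CPM in HS and 22.4, 23.6 and 19.3 CPM in HS+REC with scramble. The siLonp1 values were 56.3, 53.2 and 58.6 CPM in Ctrl, 63.5, 52 and 55.8 CPM in HS and 101, 112 and 117 CPM in HS+REC, so that recovery libraries were the highest in both arms. IL23A, a cytokine subunit, had ratios of 3.23, 3.07 and 3.2, with levels that were lowest in recovery in both arms. EFNB3, a ligand of Eph receptors, had ratios of 2.85, 3.01 and 3.27.

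PDGFB, AREG and HBEGF are growth factors that act on receptor tyrosine kinases, AREG and HBEGF on the EGF receptor. PDGFB was at 27.5, 25.3 and 24.8 CPM in Ctrl, 24.6, 21.8 and 19.4 CPM in HS and 13.2, 11.7 and 11.7 CPM in HS+REC with scramble, and at 69.1, 61.2 and 61 CPM in Ctrl, 44.7, 44.3 and 44.9 CPM in HS and 32.1, 29.8 and 34.7 CPM in HS+REC with siLonp1, ratios of 2.47, 2.03 and 2.64. AREG had ratios of 2.01, 2.63 and 2.71 and HBEGF of 2.47, 2.13 and 2.78, and in both the lowest Ctrl siLonp1 library lay under the highest heated scramble library. WNT6, a ligand of Frizzled receptors at no more than 7.24 CPM in any library, had ratios of 4.0, 2.29 and 3.26.

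CXCL8 is the chemokine that attracts neutrophils. In scramble libraries it was at 14.4, 14.5 and 13.4 CPM in Ctrl, 26, 24.7 and 31.3 CPM in HS and 26.6, 36 and 29.1 CPM in HS+REC. In siLonp1 libraries it was at 36.5, 43.5 and 45.5 CPM in Ctrl, 109, 95.3 and 92.9 CPM in HS and 92.5, 112 and 94.1 CPM in HS+REC. The ratios were 2.97, 3.62 and 3.26. Unheated siLonp1 libraries, from 36.5 to 45.5 CPM, were above the heated scramble libraries, from 24.7 to 36 CPM, and heated siLonp1 libraries were the highest of all.

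Receptors, channels and other membrane proteins gave 12 genes, among them NGFR, IL10RB, MERTK, TRPV4, CD82, EMP2, RAET1L, SSC4D, PCDH1, CADM4 and THSD1, with median ratios of 2.58, 2.68 and 2.58. SSC4D, a protein with scavenger receptor domains, had ratios of 3.44, 3.93 and 4.01 at 1.72 to 2.41 CPM in scramble libraries. TRPV4, a calcium channel that opens on warming and stretch, had ratios of 2.6, 2.57 and 2.58. MERTK, a receptor tyrosine kinase for the uptake of dying cells, had 3.04, 2.55 and 2.11.

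Genes best known from blood cells gave 9 members, among them LAPTM5, IL7R, ARHGDIB, CORO1A, CST7, LAT2, HMHA1 and TSPAN32, with median ratios of 2.79, 2.85 and 2.93. LAPTM5, a lysosomal membrane protein of haematopoietic cells, was at 4.34, 3.42 and 3.2 CPM in Ctrl, 3.22, 3.37 and 3.44 CPM in HS and 2.65, 3.16 and 3.28 CPM in HS+REC with scramble. With siLonp1 it was at 14.4, 12.6 and 13.2 CPM in Ctrl, 15.1, 13.1 and 13.9 CPM in HS and 12.9, 12.8 and 11.2 CPM in HS+REC, ratios of 3.68, 4.2 and 4.06, without overlap. IL7R, the interleukin receptor of developing lymphocytes, had ratios of 3.68, 3.44 and 3.59. It was at 4.6, 4.04 and 3.73 CPM in Ctrl, 7.86, 6.68 and 7.3 CPM in HS and 12, 11.5 and 10.6 CPM in HS+REC with scramble. The siLonp1 values were 15, 14.9 and 15.7 CPM in Ctrl, 25.4, 25 and 24.8 CPM in HS and 39, 42.6 and 40.5 CPM in HS+REC, higher in each successive heat condition in both arms. ARHGDIB, a regulator that holds small GTPases inactive, had ratios of 3.42, 3.66 and 3.56, and CST7, a protease inhibitor of cytotoxic lymphocytes, of 2.85, 2.85 and 3.09. The leukocyte markers PTPRC, CD3E, LYZ and ITGAM did not follow. All but LYZ were at no more than 0.0979 CPM in any library, and the group means of LYZ were 8.28 to 9.23 CPM in scramble and 3.06 to 3.15 CPM in siLonp1 libraries. In a bulk measurement, more cells that hold a transcript and more transcript per cell cannot be told apart.

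Adhesion, actin and muscle proteins gave 13 genes, with median ratios of 2.56, 2.69 and 2.61. TLN1, which couples integrins to actin, was at 105, 104 and 103 CPM in Ctrl, 94.9, 98.4 and 83.6 CPM in HS and 94.7, 80.8 and 83.3 CPM in HS+REC with scramble. Its siLonp1 libraries were at 300.2, 281 and 256 CPM in Ctrl, 213, 271 and 271 CPM in HS and 230.0, 244 and 263 CPM in HS+REC, ratios of 2.68, 2.73 and 2.84. The lowest siLonp1 library, at 213 CPM, stood against 105 CPM in the highest scramble library. AKAP12, a scaffold for protein kinases A and C, was at 211, 171 and 195 CPM in Ctrl, 188, 178 and 154 CPM in HS and 164, 141 and 128 CPM in HS+REC with scramble. The siLonp1 values were 485, 486 and 479 CPM in Ctrl, 422, 467 and 508 CPM in HS and 342, 368 and 419 CPM in HS+REC, ratios of 2.51, 2.69 and 2.61, and the mean of both arms was lowest in recovery. ZYX, a LIM protein of focal adhesions, was at 228, 225 and 213 CPM in Ctrl, 203, 203 and 169 CPM in HS and 129, 106 and 123 CPM in HS+REC with scramble. Silenced cells had 537, 552 and 475 CPM in Ctrl, 453, 445 and 444 CPM in HS and 267, 229.9 and 287 CPM in HS+REC. Its ratios were 2.35, 2.34 and 2.19, and its level in recovery was lower in both arms while the ratio changed little. PTRF, a coat protein of caveolae, had ratios of 2.03, 2.14 and 2.2, at 116 to 168 CPM with scramble and 234 to 366 CPM with siLonp1. ITGA7, a laminin-binding integrin chain, had ratios of 3.47, 3.54 and 3.93. MYL9, a regulatory light chain of myosin, had 2.5, 2.71 and 2.19 and FHL1, a LIM protein of muscle, 2.22, 2.4 and 2.41. TNNC1, the calcium-binding subunit of troponin in heart and slow muscle, had ratios of 3.42, 3.68 and 4.35 but was at no more than 4.75 CPM in any library, and TNNT1, another troponin subunit, had 2.71, 3.52 and 2.87. ITGB8, FLNC, AFAP1L2 and WTIP were the others, and none of the 13 had a ratio over 4.35.

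Matrix and extracellular proteolysis was represented by 11 genes, among them NID1, COL6A2, COL2A1, LOXL2, SULF2, CHPF, PLAU, SERPINI1, ACE and ECEL1, with median ratios of 2.59, 2.65 and 2.69. NID1 joins laminin to collagen in basement membranes. In scramble libraries it was at 26, 24.8 and 26 CPM in Ctrl, 25.2, 24.6 and 21.3 CPM in HS and 58.1, 71.3 and 68.9 CPM in HS+REC. In siLonp1 libraries it was at 100.4, 99.6 and 94.4 CPM in Ctrl, 83.9, 91.7 and 92.2 CPM in HS and 217, 224 and 188 CPM in HS+REC. The ratios were 3.83, 3.77 and 3.17, and recovery libraries were the highest in both arms. PLAU, the plasminogen activator urokinase, had ratios of 2.67, 2.95 and 3.0. LOXL2, which crosslinks collagen, had ratios of 2.55, 2.61 and 2.12.

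Neuronal and synaptic genes gave 11 members, KIF1A, DLG4, RIMS3, DOC2B, NKAIN1, TUBB2B, CHRND, B3GAT1, PALM, SHISA9 and NXPH4, with median ratios of 2.55, 2.49 and 2.63. KIF1A, a motor of axonal transport, was at 13.2, 13.1 and 10.6 CPM in Ctrl, 10.4, 12.4 and 8.86 CPM in HS and 10.3, 9.65 and 8.54 CPM in HS+REC with scramble. Silenced cells had 42.5, 41.5 and 34.3 CPM in Ctrl, 29.5, 36.1 and 29.7 CPM in HS and 31.3, 32.4 and 32.3 CPM in HS+REC, ratios of 3.2, 3.01 and 3.37. PALM, a lipid-anchored membrane protein of neurons, had ratios of 3.1, 4.59 and 3.56. Its scramble level of 1.33 to 2.45 CPM rested on 226 counts in all Ctrl scramble libraries together, 181 in HS and 247 in HS+REC. DLG4, the main scaffold of excitatory synapses, had 2.82, 2.54 and 2.64. CHRND, a subunit of the acetylcholine receptor of muscle, lies 38.3 kb from ECEL1 on chromosome 2 (GRCh38.p14), and their ratios were 2.11, 2.36 and 2.1 and 2.54, 2.56 and 2.34.

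Transcription and RNA-binding factors other than LBH were MEIS3, NR4A1, ARID3B, ETS1, PHF1, LSM14A and PCBP4. MEIS3, a homeobox factor, had ratios of 3.37, 3.76 and 3.54 at 1.59 to 2.43 CPM with scramble. ETS1, a factor of migrating and lymphoid cells, had 2.29, 2.32 and 2.41, and LSM14A, a protein of RNA processing bodies, 2.07, 2.16 and 2.05. NR4A1, an orphan nuclear receptor and early response gene, was at 5.24, 4.89 and 4.92 CPM in Ctrl, 18, 21.2 and 19.6 CPM in HS and 6.95, 7.18 and 7.76 CPM in HS+REC with scramble. With siLonp1 it was at 13.6, 14.4 and 14 CPM in Ctrl, 54, 61.4 and 58.9 CPM in HS and 28.8, 27.2 and 20.2 CPM in HS+REC. Its ratios were 2.79, 2.97 and 3.48, but heated scramble libraries, from 18 to 21.2 CPM, stood above unheated siLonp1 libraries, from 13.6 to 14.4 CPM.

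By the roles given to them by hand, TOP1MT and THG1L were the members that act in mitochondria. TOP1MT, the topoisomerase of mitochondrial DNA, was at 22.4, 22.2 and 21.6 CPM in Ctrl, 20.3, 22.7 and 21.2 CPM in HS and 19.2, 18.3 and 20.1 CPM in HS+REC with scramble. The siLonp1 libraries were at 53.3, 59.8 and 55.1 CPM in Ctrl, 55, 58.4 and 58.2 CPM in HS and 61.5, 53.4 and 53.5 CPM in HS+REC, ratios of 2.54, 2.68 and 2.93. THG1L, which completes a histidine tRNA, had ratios of 2.22, 2.22 and 2.23, the steadiest of all members. Metabolism and transport gave ASS1, the argininosuccinate synthase of arginine synthesis, with ratios of 2.06, 2.69 and 2.28, and APOE, the lipid carrier, with 3.11, 2.59 and 3.45. STEAP3, SLC41A1, SLC22A18 and CRABP2 had ratios between 2.2 and 2.78.

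The remaining 17 genes were SOCS2, WIPI1, C6orf15, PRICKLE2, LIMD2, FBXO2, CAPN5, CAPN12, CLIC3, ZNF853, LCTL, CRIP1, PRR36, PRAP1, SHISA4, FAM69B and C15orf52, with median ratios of 2.62, 2.52 and 2.81. SOCS2, a feedback inhibitor of cytokine receptors, had ratios of 3.58, 2.92 and 3.94 at 0.938 to 2.42 CPM with scramble. C6orf15 had 3.28, 3.51 and 3.74 and was at 9.99, 12.4 and 10.8 CPM in Ctrl scramble against 38.2, 34.7 and 36.1 CPM in Ctrl siLonp1. WIPI1, a lipid-binding protein of autophagosome formation, had 3.38, 3.48 and 2.81. PRICKLE2, a protein of planar cell polarity, had the widest spread over conditions, with 4.71, 2.6 and 4.35 at up to about 1.56 CPM in scramble libraries.

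**Figure D2:**
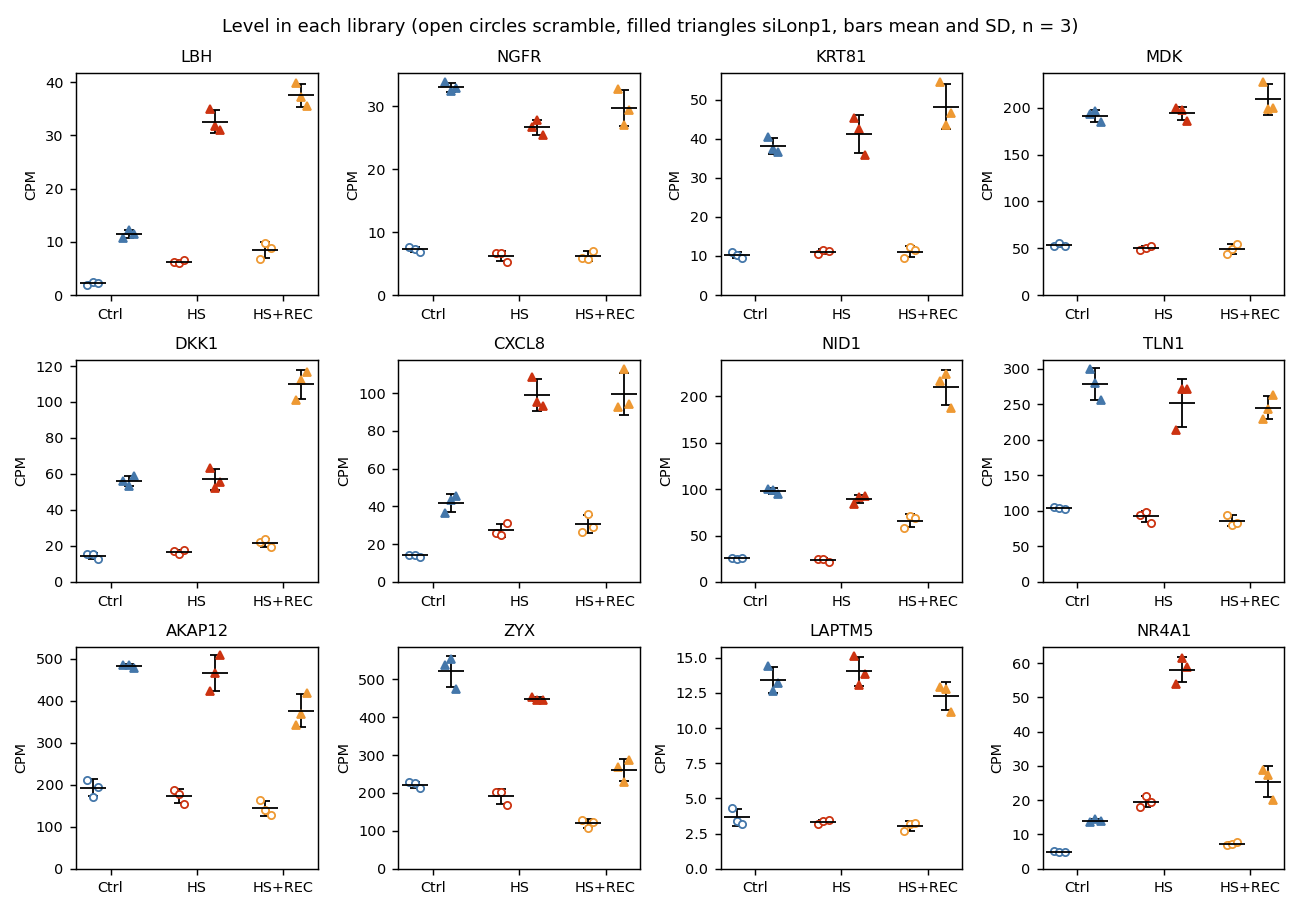
CPM of 12 of the genes in every library, with open circles for scramble, filled triangles for siLonp1, and bars for the mean and SD of 3 libraries. In each panel the siLonp1 libraries lie above the scramble libraries of the same condition, and NR4A1 rises in HS in both arms, to 18 to 21.2 CPM with scramble and 54 to 61.4 CPM with siLonp1.

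Heat within an arm was not the contrast that chose the genes, and edgeR's quasi-likelihood test was applied to it with all 18 libraries in 1 model, with calls at an FDR (Benjamini-Hochberg) up to 0.05 and a change of more than 2-fold. Both limits of the rule touch it. A gene that heat lowered to under 3 CPM with siLonp1 could not be among the 104. Nor could a gene whose heat response differed enough between the arms to bring a ratio under 2. Likeness of the 2 arms in their heat effects is thus partly set by the choice of the genes. Of the 104 genes 97 were called in no heat contrast, beside 93.1% of all genes tested. HS against Ctrl raised 3 and lowered 1 with scramble, beside 2.94% and 0.366% of all genes tested, and raised 4 and lowered 0 with siLonp1, beside 3.42% and 1.15%. HS+REC against HS raised 2 and lowered 1 with scramble, beside 1.06% and 0.842%, and raised 2 and lowered 1 with siLonp1, beside 1.83% and 0.74%. For the count of 0 by edgeR's quasi-likelihood test, 24 members had a lower level at an unadjusted p under 0.05, beside 25.3% of all genes, and DESeq2 also called 0. Without Ctrl siLonp1 replicate 1 this count was 1. Without HS+REC siLonp1 replicate 1 recovery raised 4 genes with siLonp1, and without replicate 2 of HS or of HS+REC siLonp1 it lowered 2. The shares of the 104 genes were thus near those of all genes, with so few calls that they rest on single genes.

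At the FDR alone, without a limit on the fold change, HS raised 17 and lowered 18 of the 104 with scramble, beside 18.6% and 17.3% of all genes. With siLonp1 it raised 18 and lowered 21, beside 20.2% and 22.1%. Recovery against HS raised 11 and lowered 15 with scramble, beside 14.2% and 12.7%, and 19 and 17 with siLonp1, beside 16.3% and 15.6%. The median log2 fold change of the 104 genes was -0.06 for HS with scramble and 0.00 with siLonp1, and -0.01 and 0.00 for recovery against HS, where the medians of all genes were -0.01, 0.00, 0.01 and -0.01. Leaving out 1 library moved the medians of the 104 genes over -0.10 to -0.02 for HS with scramble, -0.01 to 0.03 with siLonp1, and -0.03 to 0.04 and -0.07 to 0.04 for recovery, so that only the first kept its sign.

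NR4A1 showed the largest rise. Its log2 fold change in HS was 1.99 with scramble (standard error 0.11, adjusted p = 1.63e-12, edgeR's quasi-likelihood test, Benjamini-Hochberg) and 2.10 with siLonp1 (0.10, adjusted p = 5.14e-14, same test). In recovery against HS it was -1.36 and -1.16, which shares the HS libraries with the first contrast. LBH rose in HS by 1.53 with scramble (standard error 0.13) and by 1.55 with siLonp1 (0.10, adjusted p = 7.48e-12, edgeR). It was thus higher with heat and higher with siLonp1, and the siLonp1 libraries after heat, at 31 to 39.8 CPM, were the highest of all its libraries.

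HBEGF, whose Ctrl libraries were at 8.4, 6.86 and 7.05 CPM with scramble and 17.7, 18.6 and 18.8 CPM with siLonp1, reached 17.6, 18 and 15.1 CPM and 37.4, 38.3 and 32.1 CPM in HS. The log2 fold changes were 1.22 (standard error 0.12) and 1.02 (0.11, adjusted p = 3.36e-08, edgeR). The second lies at the fold change limit, and it was 0.995 without Ctrl siLonp1 replicate 1, 0.98 without HS siLonp1 replicate 1 and 0.97 without HS siLonp1 replicate 2, which ends the call. CXCL8 rose in HS with siLonp1 by 1.29 (standard error 0.11, adjusted p = 7.46e-10, edgeR) and in scramble by 0.98 (0.12), which misses the fold change limit. CHPF, a factor of chondroitin chain synthesis, fell in HS with scramble by 1.14 in log2 units (standard error 0.07, adjusted p = 1.33e-11, edgeR). Its libraries were at 71.4, 71 and 65.9 CPM in Ctrl, 30.5, 33.1 and 29.3 CPM in HS and 31.3, 25 and 31.2 CPM in HS+REC with scramble, and at 172, 170.4 and 169.9 CPM in Ctrl, 107, 111 and 106 CPM in HS and 86.8, 79.7 and 89.2 CPM in HS+REC with siLonp1, where the HS change was -0.62 (0.07). Differences between arms in these heat effects are made of the ratios that chose the genes and were not tested.

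Recovery raised NID1 and AREG in both arms. For NID1 the log2 fold change of HS+REC against HS was 1.53 with scramble (standard error 0.08, adjusted p = 2.71e-12, edgeR) and 1.26 with siLonp1 (0.08, adjusted p = 1.69e-11, edgeR), while its HS changes were -0.08 and -0.09. AREG was at 9.19, 7.89 and 7.05 CPM in Ctrl, 10.2, 8.39 and 10.2 CPM in HS and 22.9, 20.4 and 18.2 CPM in HS+REC with scramble. With siLonp1 it was at 14.1, 17 and 17.4 CPM in Ctrl, 28.9, 22.7 and 24.2 CPM in HS and 56.5, 53.8 and 56.4 CPM in HS+REC, and recovery libraries were the highest in both arms without overlap with HS. The log2 fold change was 1.15 (standard error 0.11) and 1.17 (0.10, adjusted p = 3.83e-09, edgeR).

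**Figure D3:**
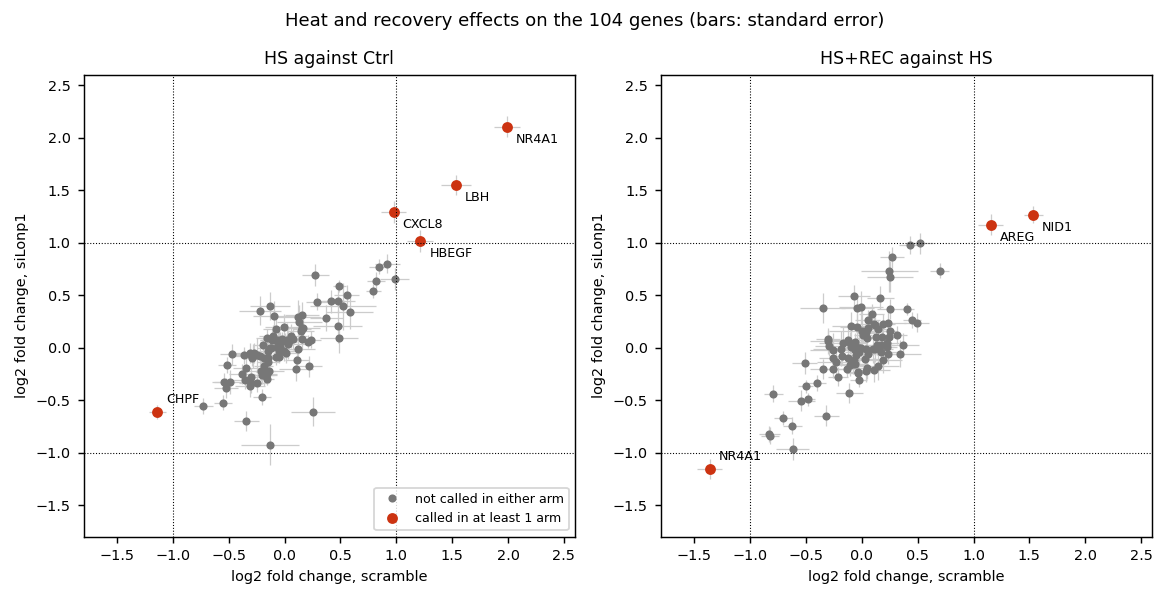
Log2 fold change of each of the 104 genes with heat (HS against Ctrl, left) and recovery (HS+REC against HS, right) in scramble (horizontal axis) and siLonp1 cells (vertical axis), with bars for the standard error and dotted lines at a fold change of 2. Genes called in at least 1 arm are red, 7 in all, and NR4A1 lies farthest out in HS, at 1.99 and 2.10.

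Of the 104 genes 14 stood on any of 11 lists of pathways. The lists were made with earlier results of these data known. In each, genes kept for testing were counted by edgeR's quasi-likelihood call for siLonp1 against scramble in Ctrl, HS and HS+REC, beside the shares of all genes given above, and the median log2 fold change of a list stands beside 0.01, 0.00 and -0.00 for all genes. The counts and medians include the members, which the rule chose by this same contrast. That part of each count was set by the choice of the genes. Squamous keratins and cornified envelope genes had 7 of 14 genes raised in Ctrl, HS and HS+REC alike, namely the 4 member keratins and KRT6A, KRT15 and KRT16, which were outside the 104, and DSC2, a desmosomal cadherin, lowered in each. The median of the list was 0.87, 0.98 and 0.85. KRT6A had log2 fold changes of 1.34, 1.47 and 1.27, KRT15 of 1.04, 1.21 and 1.21 and KRT16 of 1.57, 1.85 and 1.74. DSC2 had -1.12, -1.30 and -1.34. Intestinal differentiation genes held no member and had medians of -0.04, 0.26 and 0.01. Of 11, 4 were lowered in each condition, CDH17, CEACAM5, CEACAM6 and FABP1, and 1 was raised, KRT20 in Ctrl and HS and CA2 in HS+REC. CDH17, an intestinal cadherin, had -3.12, -3.41 and -3.11 and FABP1, a fatty acid carrier, -1.55, -2.14 and -1.62. CDX2, an intestinal transcription factor, was given above with the epithelial markers.

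Growth factor ligands had 4 of 13 raised in Ctrl libraries, 3 in HS and 4 in HS+REC and none lowered, of which AREG, HBEGF and PDGFB are among the 104 and TGFB1 is not (1.16, 0.97 and 1.36). In HS only the members of this list were raised. The medians were 0.65, 0.61 and 0.77. SRF and actin cytoskeleton genes had 4, 3 and 5 of 22 raised and none lowered, with medians of 0.59, 0.57 and 0.38. FHL1, MYL9 and ZYX are among the 104 and were the only genes of this list raised in HS. VCL, which joins talin to actin, had 0.72, 0.68 and 0.10. Other early response genes had 4, 3 and 5 of 22 raised and none lowered, with medians of 0.50, 0.39 and 0.64 and with HBEGF and NR4A1 as members. Extracellular matrix and elastic fibre genes had 6, 3 and 5 of 23 raised and 2 lowered in each, COL4A2 and MMP7, with LOXL2 among the members and with EFEMP2 outside the 104 at 1.58, 1.64 and 1.16. The medians were 0.59, 0.60 and 0.59. NF-kB target and cytokine genes had 4, 3 and 3 of 21 raised and UBD lowered in HS+REC, with medians of 0.16, 0.04 and 0.04. CXCL8 was the only member, IL11 had 1.70, 1.82 and 1.70 and CXCL1 1.07, 0.87 and 1.07. The integrated stress response list had no member. Of its 25 genes 1 was raised in Ctrl libraries, 2 in HS and 2 in HS+REC, and SESN2 was lowered in Ctrl. FGF21 was raised in each, at 1.84, 1.42 and 1.33, and ASNS, at 0.92, 1.39 and 1.05, in HS and HS+REC only. At the FDR alone 9 genes of the list were up and 8 down in Ctrl, 13 and 1 in HS, and 14 and 2 in HS+REC. The medians were -0.02, 0.24 and 0.27. YAP and TEAD targets had 3, 0 and 3 of 15 raised (medians 0.54, 0.27 and 0.46) and p53 targets 2, 1 and 1 of 19 (0.16, 0.13 and 0.11), none lowered. Interferon response genes had 1, 0 and 0 of 19 raised and IFIT2 lowered in HS (0.01, -0.00 and -0.15), and none of the last 3 lists held a member.

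All 104 genes are protein coding, beside 94.1% of the genes kept. Their transcripts were rich in G and C. GENCODE transcripts were matched for 100 of the 104 genes and 11902 of the genes kept, and the median GC content was 57.6% and 48.9%. Of the 100, 46 lay in the 2 highest of 10 equal classes of GC content and 3 in the 2 lowest. The median log2 ratio over all genes ran from -0.13 to 0.01 across these classes in the 3 conditions. Removing the trends with GC content and length, a setting chosen after seeing the data, kept 99 of the 100 members that had a transcript. The part of GC content in the ratios was not tested. Transcripts had a median length of 2878 bases, and 3276.5 bases for the genes kept.

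**Figure D4:**
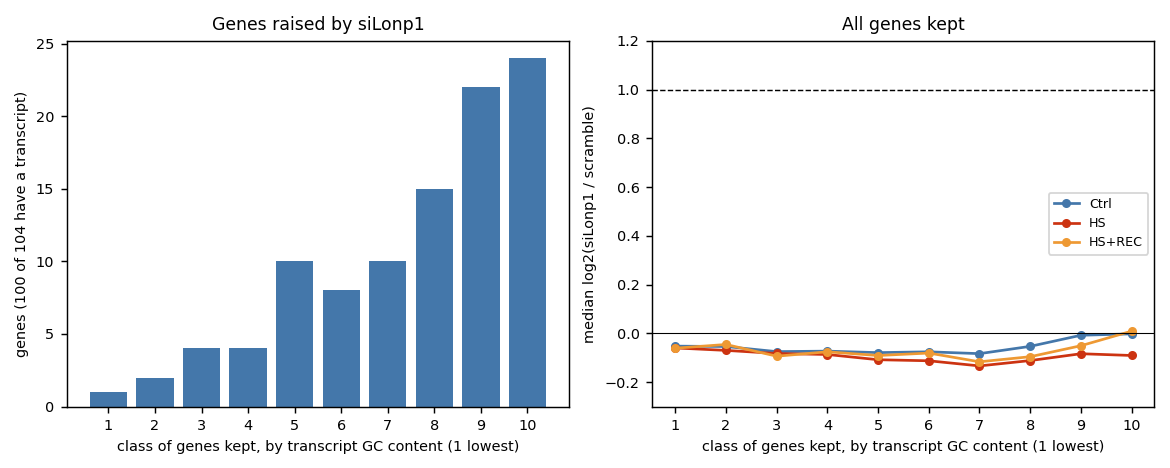
Left, the number of the 104 genes in each of 10 equal classes of the genes kept, ordered by the GC content of a transcript, with 24 in the highest class and 1 in the lowest. Right, the median log2 ratio of siLonp1 to scramble over all genes of each class in Ctrl, HS and HS+REC, which lies between -0.13 and 0.01. The dashed line at 1 stands for the limit of 2 in the rule for single genes.

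The genes lay on 22 chromosomes, with 12 on chromosome 12, 11 on chromosome 19 and 9 each on chromosomes 1 and 17. On chromosome 12 NR4A1 (52022832 to 52059503, GRCh38.p14), KRT80, KRT86 and KRT81 follow each other, with 109 kb between NR4A1 and KRT80 and 82.6 kb between KRT80 and KRT86. ITGA7 and GDF11 lie 26.7 kb apart on the same chromosome, and CXCL8 and AREG 701 kb apart on chromosome 4. The share of close pairs among other genes was not computed, so these distances are given as positions only.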

How the data were processed

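RNAseq of 18 SW620 libraries was analysed, 3 in each of 6 groups that the sample labels give. The authors prepared stranded mRNA libraries, aligned paired-end reads to hg38 with STAR 2.7.3a and counted them with featureCounts in R 3.6.3, and they deposited raw counts for 26485 gene symbols. The strand setting, the handling of reads shared by several genes and the annotation release are not given in the sources used here.

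From these counts CPM were computed by column sums for the choice of the genes. Members and lists were chosen with earlier results of these data known. The 12832 genes that exceeded 1 CPM in at least 3 libraries were scaled by TMM factors (0.934 to 1.06) and tested by the quasi-likelihood test of edgeR 4.0.16 in R 4.3.3, in 1 model over the 18 libraries with a mean per group, a prior count of 0.125 for fold changes and Benjamini-Hochberg adjustment over all genes tested. The test was checked on simulated counts. The contrasts were HS against Ctrl and HS+REC against HS in each arm, and siLonp1 against scramble in each condition, the last as a description of the 104 genes.

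Genes were named by rule: the 24 with the largest smallest ratio over the conditions, the 4 with the smallest, the 4 nearest under the limit of 2, up to 3 called genes in each direction of each heat contrast, the 4 of highest CPM over the siLonp1 libraries, and up to 4 members of each list by CPM. Other members with values, HBEGF in HS with siLonp1 among them, were named after their values were seen. Total counts were 30815860 to 47279297 per library. Replicates differed by a chi-square per degree of freedom of 3.48 to 25.8, which is more than counting alone gives, so none was a duplicate. Alternatives were DESeq2 1.42.0, RLE size factors, no filter on low counts, the replicate number as a block, no limit on the fold change, omission of single libraries, TMM scaling of the CPM, other limits of the rule and, added after seeing the data, a correction for GC content and transcript length over 20 bins. RefSeq (GRCh38.p14) gave positions and promoters, and GENCODE transcripts gave GC content. Older symbols were matched for HMHA1 (ARHGAP45), PTRF (CAVIN1), FAM69B (DIPK1B), SLC22A18 and C15orf52 (CCDC9B). Some genes, members included, are not reported here, and counts and medians over groups include them.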

Additional observations from a re-analysis of the deposited data

How the results depend on the processing

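No single gene named for a heat call changed direction under the alternatives. The median log2 fold changes of the 104 genes, all near 0, crossed 0 without 1 library in 3 of the 4 heat contrasts (-0.01 to 0.03 for HS with siLonp1, -0.03 to 0.04 for recovery with scramble and -0.07 to 0.04 with siLonp1), and for recovery with siLonp1 also without the filter on low counts (-0.02). The counts of the 104 genes called in the 4 heat contrasts were the same with DESeq2, RLE size factors, no filter on low counts and the replicate number as a block, under which they stayed 3 raised and 1 lowered (HS, scramble), 2 and 1 (HS+REC against HS, scramble), 4 and 0 (HS, siLonp1) and 2 and 1 (HS+REC against HS, siLonp1). The numbers do not pair the libraries: deviations of libraries with the same number correlated at -0.379 to 0.462 (median -0.0222), and 6 of 18 libraries correlated best with their own number. Without the fold change limit the counts in that order were 17 and 18, 11 and 15, 18 and 21, and 19 and 17. Leaving out 1 library gave 3 to 4 raised and 1 to 1 lowered, 2 to 2 and 1 to 1, 3 to 4 and 0 to 1, and 2 to 4 and 1 to 2. In HS with siLonp1 the 1 lowered was found without Ctrl siLonp1 replicate 1. In recovery with siLonp1 the 4 raised were found without HS+REC siLonp1 replicate 1 and the 2 lowered without replicate 2 of HS or HS+REC siLonp1. The cause was not tested. HBEGF in HS with siLonp1 lost the fold change limit as given above. The rule found 95 to 103 genes without 1 replicate number, 132 with TMM scaling, 146 at a level limit of 1 CPM and 119 with GC and length trends removed. A ratio limit of 1.5 gave 373, by its construction. Members at a few CPM carry the largest counting error.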
